A study of Mus musculus with 6 samples.

Results

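A total of 69 genes of 4 axon guidance systems were examined in neuromesodermal progenitors (NMPs) treated with retinoic acid (RA): the ephrins and Eph receptors, the semaphorins with plexins and neuropilins, the Slits with Robo receptors, and the netrins with Dcc and Unc5 receptors. Members were chosen by a rule on gene symbols, with earlier results of these data known. The rule found 69 of the 20631 genes in the files: 8 ephrins, 14 Eph receptors, 20 semaphorins, 9 plexins, 2 neuropilins, 3 Slits, 4 Robo receptors, 4 netrins and 5 netrin receptors. NMPs are caudal progenitors that can form both spinal cord and presomitic mesoderm. Here they were made from mouse embryonic stem cells (ESCs) by 2 days of bFGF (basic fibroblast growth factor) and 1 day of bFGF with CHIR99021, an agonist of WNT signalling. All 3 groups were then kept for 2 h in N2B27 medium made without retinoids and without bFGF or CHIR99021, with DMSO (the vehicle), 25 nM RA or 1 µM RA, and 2 samples per group were sequenced as total RNA depleted of ribosomal RNA. No allele was altered in any group. The labels give the ESCs as 129 R1 and the study's methods as C57BL/6, so the strain is uncertain. ESCs had been kept on mouse embryonic fibroblast feeders, and the duplicates were separate dishes that the methods call technical replicates, so that p-values measure only the spread between dishes.

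Ephrins stay attached to the cell that makes them, either by a lipid anchor (ephrin-A) or by a transmembrane segment (ephrin-B), and bind Eph receptor tyrosine kinases on a touching cell, which lets cells of different kinds sort apart and form boundaries such as those between somites. Semaphorins, secreted or membrane-bound, signal through plexins, with neuropilins as co-receptors for the secreted class 3 forms, Slits repel cells and axons through Robo receptors, and netrins attract or repel through Dcc and Unc5. These systems are best known for steering axons, and many of their genes are already used in the gastrulating embryo and the caudal end of the body axis.

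The summed estimated counts ranged from 31753556 to 42029348 per sample, and the 69 genes held between 0.194 and 0.210% of them. The NMP marker T was at an RPKM of 367 to 380 in all 6 samples and was not called. Nkx1-2 was at 38.9 to 39.3 in DMSO, 77.9 to 81.2 at 25 nM RA and 74.8 to 80.55 at 1 µM RA. Sox2 was at 5.20 to 5.21, 15.25 to 15.53 and 15.35 to 17.25 in the same order. Of the 6 NMP markers listed, 4 rose and 1 fell at 25 nM RA, and 3 rose and 1 fell at 1 µM RA, with Nkx1-2 and Sox2 rising at both. The pluripotency gene Pou5f1 was at 432 to 471. Of the committed neural markers, Pax6, Neurog2 and Olig2 stayed under an RPKM of 0.1 in all samples, Sox1 was at 0.180 to 0.245 and was not called, and Tubb3, at 9.88 to 11.6, fell at 1 µM RA (log2 fold change -0.21 ± 0.067 (SE), adjusted p = 0.017 by edgeR's likelihood ratio test). The summed RPKM of these 5 genes was 11.9 in both DMSO samples, 11.2 to 11.9 at 25 nM RA and 10.2 to 10.6 at 1 µM RA. DESeq2 did not call the fall of Tubb3 (adjusted p = 0.17). The 3 endoderm markers (Sox17, Foxa2, Gata6) fell at both doses by the likelihood ratio test, Gata6 at 1 µM RA with an adjusted p of 0.099. DESeq2 did not call Gata6 (adjusted p = 0.28 at 25 nM and 0.33 at 1 µM). The summed RPKM of the 3 was 30.5 to 30.6 in DMSO, 23.7 to 24.1 at 25 nM RA and 21.7 to 21.9 at 1 µM RA. The summed RPKM of 4 presomitic mesoderm markers, of which Tbx6 and Msgn1 fell and Meox1 rose at both doses, was 53.6 to 54.3, 42.8 to 45.7 and 38.5 to 40.8 in the same order. Of the 6 fibroblast feeder markers, 3 fell and Pdgfra rose at 1 µM RA by the likelihood ratio test, and DESeq2 called 0 of the falls. The summed RPKM of the 6 was 14.9 to 15.5 in DMSO and 20.5 in both 1 µM RA samples. Pdgfra made up most of this sum, at a mean RPKM of 9.59 in DMSO, 11.8 at 25 nM RA and 15.6 at 1 µM RA. It was also called up at 25 nM RA (log2 fold change 0.29 ± 0.051, adjusted p = 4.9e-07 by the likelihood ratio test). The rising sum therefore follows Pdgfra and does not stand for the feeder markers as a set. The part of these markers in the results on guidance genes was not tested, and in bulk RNA fewer cells of a type and less RNA per cell cannot be told apart.

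In DMSO, levels were compared per length, as RPKM (reads per length of transcript and per depth of the sample). Among the members, 12 had a mean RPKM of at least 10, 27 were between 1 and 10, and 30 were under 1. The Eph receptors Epha1 (58.7 ± 1.12, SD, n = 2), Ephb4 (28.4 ± 0.752) and Epha2 (25.2 ± 0.239) led the list, followed by the secreted netrin Ntn1 (23.4 ± 0.110). Highest in the other families were Unc5b (14.7 ± 0.292) among netrin receptors, Efna4 (14.5 ± 0.886) among ephrins, Plxna1 (12.7 ± 0.369) among plexins, Sema4c (10.1 ± 0.511) among semaphorins, Robo1 (7.21 ± 0.106) among Robo receptors, Slit3 (5.98 ± 0.297) among Slits and Nrp2 (4.53 ± 0.172) of the neuropilins. Unc5b and Efna4, which follow each other in this order, differed by less than the SD of Efna4. Ligands and receptors of each system were detected together, except that Dcc, an attractive netrin receptor, was at 0.0112 to 0.0470 in all samples. Neogenin (Neo1), a netrin receptor family member outside the rule, was at 8.39 and 8.18 in DMSO and was called at neither dose. Dcc, Epha6, Ntn5, Plxnb3, Robo2 and Sema3g stayed under an RPKM of 0.1 in all samples, and Epha6, Ntn5 and Plxnb3 were below the filter on low counts, which left 66 members tested.

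**Figure D1:**
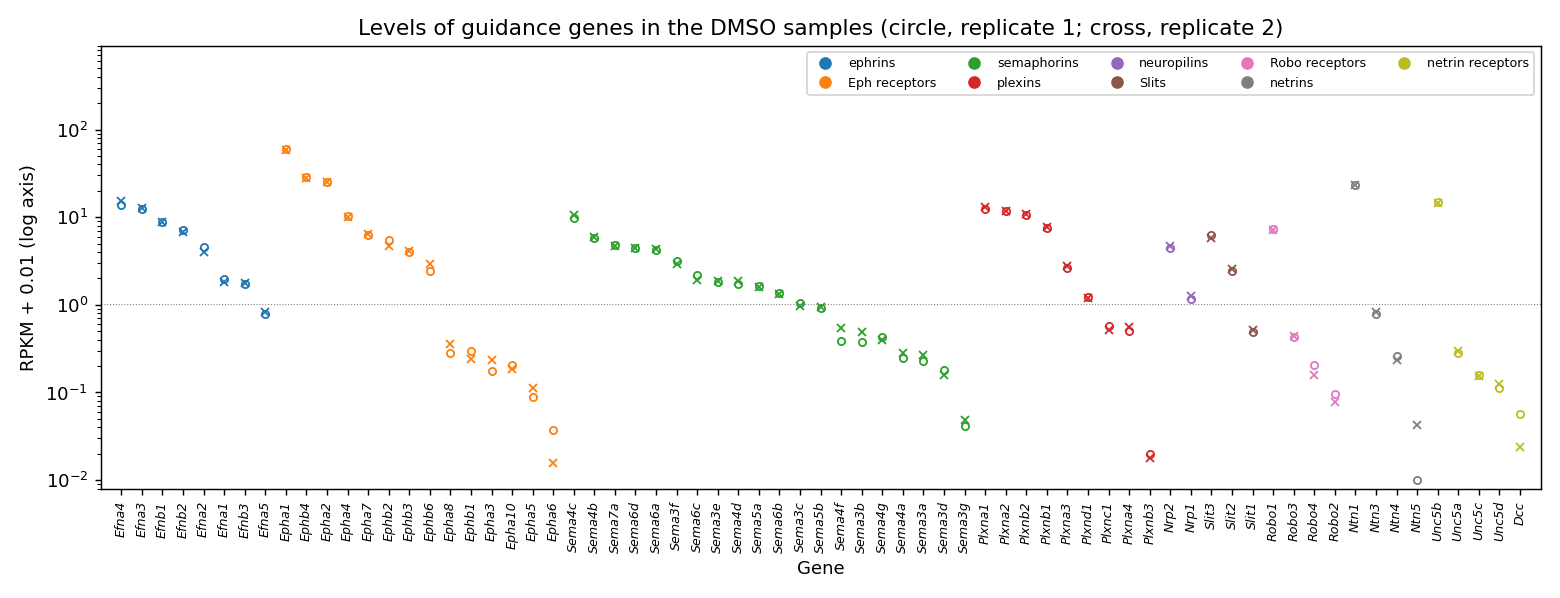
RPKM plus 0.01 (log axis) of each of the 69 genes in the 2 DMSO samples (circle, replicate 1; cross, replicate 2), coloured by family, with a dotted line at an RPKM of 1. Epha1 is highest at a mean of 58.7, and the widest gaps between duplicates are among genes under 1.

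A gene was called with a Benjamini-Hochberg adjusted p under 0.1 by edgeR's likelihood ratio test. At 25 nM RA, 7 of the 66 tested members rose (10.6%, against 4.5% of all 15143 genes tested) and 9 fell (13.6%, against 3.55% of all genes). At 1 µM RA, 7 members rose (10.6%, against 8.54%) and 26 fell (39.4%, against 11.2%). The median log2 fold change of members was -0.06 with 25 nM RA and -0.19 with 1 µM RA, where the median of all genes was -0.0005 and 0.0013. Both doses share the DMSO samples. Of the members, 5 rose and 8 fell at both doses, 18 fell at 1 µM RA only (4 of these differed between doses in the direct comparison given later), 30 were called in neither comparison, and none was called in opposite directions by any of the tests run. Most changes were small, as 6 of the 36 members called at either dose had an absolute log2 fold change over 0.5 at 1 µM RA. With the quasi-likelihood test of edgeR, 7 rose (10.6%, against 4.05% of all genes) and 5 fell (7.58%, against 2.85%) at 25 nM RA, and 7 rose (10.6%, against 8.6%) and 26 fell (39.4%, against 10.6%) at 1 µM RA. With DESeq2, 4 rose (6.06%, against 2.54% of all genes) and 2 fell (3.03%, against 1.2%) at 25 nM RA, and 3 rose (4.55%, against 4.79%) and 13 fell (19.7%, against 5.73%) at 1 µM RA. The DESeq2 calls at the low dose were Efnb1, Epha2, Sema6a and Sema7a up and Efna3 and Epha7 down. At the high dose they were Efnb1, Epha2 and Sema7a up and Efna3, Efna4, Epha1, Epha7, Nrp2, Plxna1, Plxna2, Plxnb1, Plxnb2, Robo1, Sema6d, Slit2 and Slit3 down. By the likelihood ratio test 14 of 34 tested ligands (41.2%) and 12 of 32 tested receptors (37.5%) fell at 1 µM RA, against 11.2% of all genes. By DESeq2 5 of these ligands (14.7%) and 8 of these receptors (25%) fell, against 5.73%.

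Among the ephrin ligands, 4 of 5 of the A class fell and Efnb1, 1 of 3 of the B class, rose at both doses by the likelihood ratio test. Of all 8 ephrins, 12.5% rose and 50% fell at each dose. Of all genes 4.5% rose and 3.55% fell at 25 nM RA, and 8.54% rose and 11.2% fell at 1 µM RA. Of the 5 ephrin-A genes, Efna1, Efna3, Efna4 and Efna5 fell at each dose, and Efna2 was not called (log2 fold change 0.012 ± 0.10 with adjusted p = 0.98 at 25 nM and -0.094 ± 0.10 with adjusted p = 0.61 at 1 µM). Efna3 (chr3:89314951-89322879, minus strand) had an RPKM of 12.5 and 12.6 in DMSO, 9.40 and 9.08 at 25 nM and 9.63 and 10.97 at 1 µM. Both RA groups lay below both DMSO samples, and the fall was called at both (log2 fold change -0.45 ± 0.078 with adjusted p = 5.9e-07 at 25 nM and -0.29 ± 0.077 with adjusted p = 0.0019 at 1 µM). Efna4 (chr3:89333393-89338028), the most abundant ephrin, was at 13.9 and 15.1 in DMSO, 12.9 and 11.7 at 25 nM and 11.3 and 12.8 at 1 µM. Its RA samples were likewise all lower than either DMSO sample (log2 fold change -0.25 ± 0.075 with adjusted p = 0.021 at 25 nM and -0.27 ± 0.075 with adjusted p = 0.0035 at 1 µM). Efna1 (chr3:89271730-89280951) was at 1.94 and 1.82 in DMSO, 1.28 and 1.51 at 25 nM and 1.35 and 1.35 at 1 µM. The RA samples were again below both DMSO samples (log2 fold change -0.43 ± 0.15 with adjusted p = 0.07 at 25 nM and -0.49 ± 0.15 with adjusted p = 0.012 at 1 µM). Efna5, on another chromosome, was under an RPKM of 1 (0.777 and 0.809 in DMSO, 0.653 and 0.607 at 25 nM and 0.592 and 0.598 at 1 µM) and fell (log2 fold change -0.33 ± 0.12 with adjusted p = 0.092 at 25 nM and -0.41 ± 0.13 with adjusted p = 0.0093 at 1 µM). At 25 nM RA the calls of Efna1 and Efna5 were lost under the quasi-likelihood test (adjusted p = 0.13 and 0.14). DESeq2 kept only Efna3 of the 4 at 25 nM RA (adjusted p = 0.72 for Efna1, 0.2 for Efna4 and 0.77 for Efna5) and only Efna3 and Efna4 at 1 µM RA (0.24 for Efna1 and 0.21 for Efna5).

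Efna1, Efna3 and Efna4 lie side by side on chromosome 3, within 66299 bases. Of the 10 genes nearest to this group (5 on each side, looked up after the values of the ephrins were seen), 9 were tested, and 0 were called at 25 nM RA by the likelihood ratio test, by the quasi-likelihood test or by DESeq2 (1 at an unadjusted p under 0.05). At 1 µM RA 2 of the 9 fell by the likelihood ratio test, Trim46 (log2 fold change -0.52 ± 0.19, adjusted p = 0.039) and Zbtb7b (log2 fold change -0.24 ± 0.070, adjusted p = 0.0076), and none rose. By that test 3.55% of all genes fell and 4.5% rose at 25 nM RA, and 11.2% fell and 8.54% rose at 1 µM RA. The quasi-likelihood test kept both calls (adjusted p = 0.077 and 0.02), and DESeq2 kept Zbtb7b (0.084) but not Trim46 (0.32). Without DMSO replicate 2 the call of Efna4 was lost at both doses (adjusted p = 0.43 and 0.17), as it was without 25 nM RA replicate 2 (0.45) and without 1 µM RA replicate 1 (0.13). The call of Efna3 at 1 µM RA was lost without 1 µM RA replicate 1 (0.12), and that of Efna1 without DMSO replicate 1 (0.14). At 25 nM RA Efna1 was also lost without DMSO replicate 1 or 2 or 25 nM RA replicate 1 (0.17 to 0.5), and Efna5 without any 1 of the 6 samples (0.1 to 0.55).

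Efnb1 (chrX:99136061-99149022), a transmembrane ephrin that separates cell populations in the early embryo, had an RPKM of 8.86 and 8.92 in DMSO, 11.6 and 11.1 at 25 nM and 10.4 and 11.3 at 1 µM. All 4 RA samples were above both DMSO samples (log2 fold change 0.35 ± 0.058 with adjusted p = 1.6e-07 at 25 nM and 0.28 ± 0.058 with adjusted p = 4.1e-05 at 1 µM), and the call held when any sample was left out. Efnb2, the partner of Ephb4, was not called (log2 fold change 0.054 ± 0.060 with adjusted p = 0.82 at 25 nM and -0.094 ± 0.061 with adjusted p = 0.33 at 1 µM), nor was Efnb3 (log2 fold change -0.14 ± 0.10 with adjusted p = 0.63 at 25 nM and -0.16 ± 0.10 with adjusted p = 0.32 at 1 µM).

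Epha2 had the smallest p of all Eph receptors and rose by nearly the same amount at both doses. This receptor of ephrin-A ligands (chr4:141301221-141329384, plus strand) had an RPKM of 25.0 and 25.3 in DMSO, 41.3 and 38.7 at 25 nM and 39.2 and 40.3 at 1 µM. The 4 RA samples did not overlap the DMSO samples, while the doses overlapped each other, and Epha2 was 1.58 times its DMSO level at 25 nM RA (log2 fold change 0.66 ± 0.051, adjusted p = 1.8e-36) and 1.57 times at 1 µM RA (log2 fold change 0.65 ± 0.051, adjusted p = 1.8e-35). No left-out sample and neither other test changed these calls. The 1 µM minus 25 nM difference was small (log2 fold change -0.011 ± 0.050, adjusted p = 0.96).

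Epha7 (chr4:28813131-28967503, plus strand), another receptor of the A class, had an RPKM of 6.30 and 6.34 in DMSO, 4.67 and 4.93 at 25 nM and 4.71 and 4.44 at 1 µM. It was lower in all 4 RA samples than in either DMSO sample, at 0.775 of the DMSO level with 25 nM RA and 0.735 of it with 1 µM RA (log2 fold change -0.37 ± 0.058 with adjusted p = 1.6e-08 at 25 nM and -0.45 ± 0.058 with adjusted p = 1.1e-12 at 1 µM). The quasi-likelihood test (adjusted p = 0.00014 and 9.3e-06), DESeq2 (5.7e-05 and 1.5e-07) and each left-out sample kept the call.

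Of the other Eph receptors, 3 fell at 1 µM RA and 1 at 25 nM RA. With Epha7, 2 of the 13 tested Eph receptors fell at 25 nM RA (15.4%, against 3.55% of all genes) and 4 at 1 µM RA (30.8%, against 11.2%). Only Epha2 rose, at each dose (7.69%, against 4.5% and 8.54%). DESeq2 kept Epha1 (adjusted p = 0.009) but not Ephb4 (0.12) or Epha10 (0.25) at 1 µM RA, nor Ephb6 at 25 nM RA (0.41). Epha1, the most abundant member, was at 59.5 and 57.9 in DMSO, 56.8 and 57.3 at 25 nM and 51.99 and 53.9 at 1 µM, and fell slightly at 1 µM RA (log2 fold change -0.16 ± 0.048, adjusted p = 0.011). Ephb4, at 28.9 and 27.8 in DMSO, 28.3 and 27.5 at 25 nM and 26.4 and 26.1 at 1 µM, also fell at 1 µM RA (log2 fold change -0.12 ± 0.049, adjusted p = 0.074), a call lost without any 1 of the 6 samples (adjusted p = 0.1 to 0.39). Epha10, whose kinase domain is thought to be inactive, was at 0.195 and 0.173 in DMSO, 0.186 and 0.154 at 25 nM and 0.120 and 0.0833 at 1 µM and was called at 1 µM RA (log2 fold change -0.87 ± 0.28, adjusted p = 0.013). At 25 nM RA only, Ephb6, a receptor that also lacks kinase activity, was called down (log2 fold change -0.30 ± 0.11, adjusted p = 0.061), with an RPKM of 2.39 and 2.95 in DMSO, 2.02 and 2.28 at 25 nM and 2.25 and 2.43 at 1 µM. The DMSO duplicates of Ephb6 were farther apart than the means of DMSO and 25 nM RA, the quasi-likelihood test did not call it (0.12), and it was lost without DMSO replicate 2 (0.78) or 25 nM RA replicate 1 (0.5). Epha1 was lost without DMSO replicate 1 (0.16), and Epha10 without DMSO replicate 1 (0.15) or 1 µM RA replicate 2 (0.23). Epha4, at 10.3 and 10.04 in DMSO, 9.24 and 9.82 at 25 nM and 9.55 and 10.2 at 1 µM, was not called (log2 fold change -0.10 ± 0.056 with adjusted p = 0.43 at 25 nM and -0.049 ± 0.055 with adjusted p = 0.63 at 1 µM), and neither were Ephb2, Ephb3, Epha3, Epha5, Epha8 and Ephb1.

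**Figure D2:**
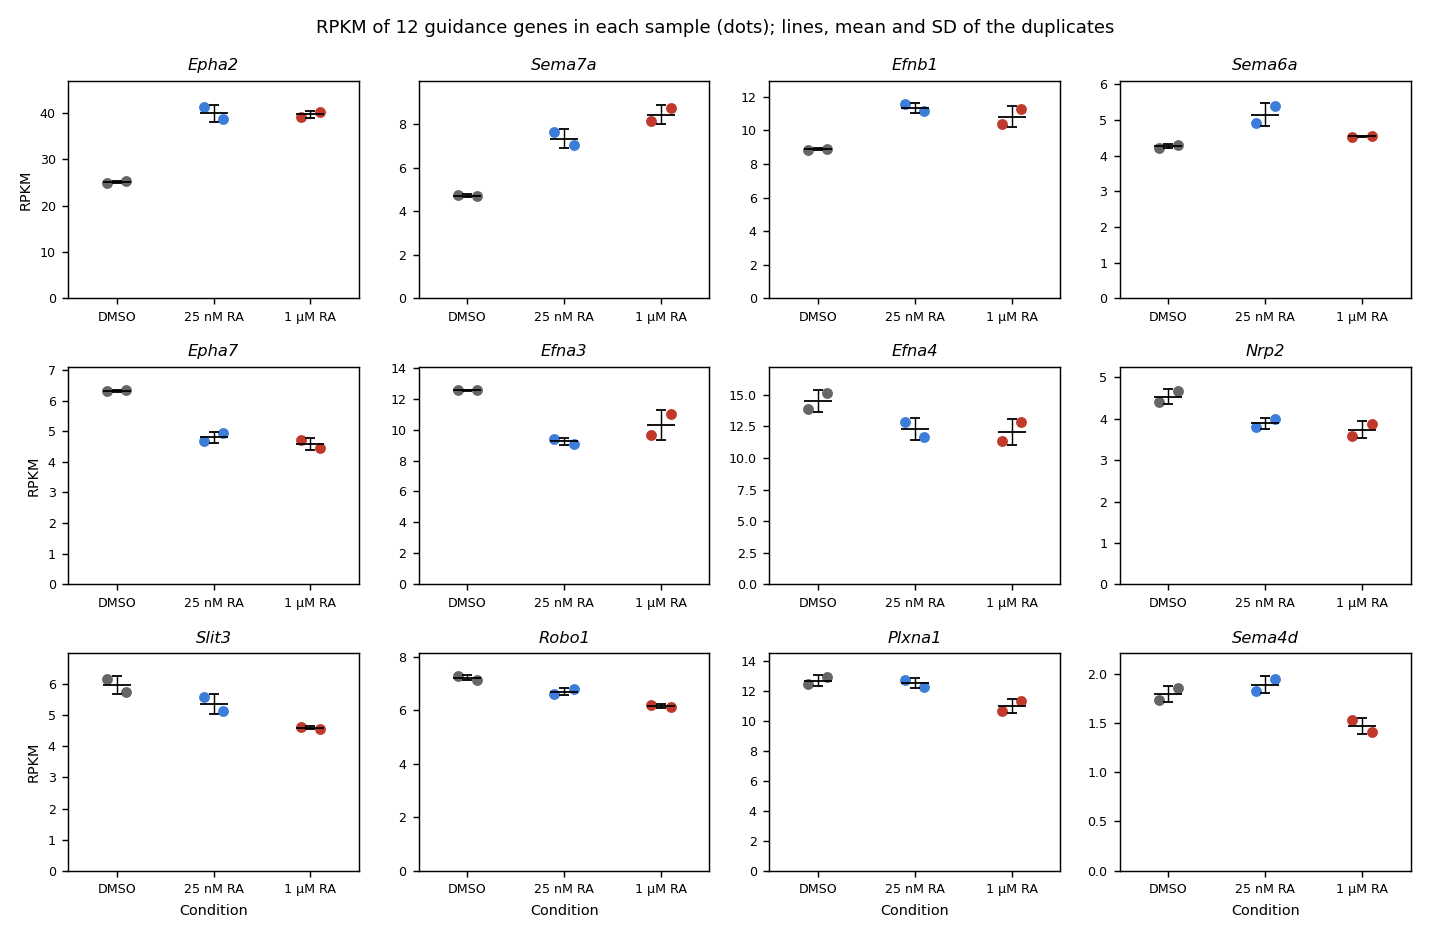
RPKM (vertical axes from 0) of 12 members in each of the 6 samples (dots), with the mean and SD of the duplicates (lines), for DMSO, 25 nM RA and 1 µM RA. Epha2, Sema7a and Efnb1 are higher in all RA samples, Epha7, Efna3, Efna4, Nrp2, Slit3 and Robo1 are lower in all RA samples, Sema6a is highest at 25 nM RA, and Plxna1 and Sema4d are lower at 1 µM RA only.

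The 250 bases upstream of the RefSeq start of Epha2 and of Sema7a, the members with the smallest adjusted p among those that rose, are shown because RA receptors bind direct repeats of the half-site AGGTCA. They were taken from RefSeq on build GRCm38.p6, plus strand, chr4:141300971-141301220 and chr9:57939862-57940111, with capitals for the 1 half-site found on either strand, 133 to 128 bases before the Epha2 start. The RefSeq start of Sema7a lies upstream of the gene start in the files, so its window ends short of the latter.
Epha2: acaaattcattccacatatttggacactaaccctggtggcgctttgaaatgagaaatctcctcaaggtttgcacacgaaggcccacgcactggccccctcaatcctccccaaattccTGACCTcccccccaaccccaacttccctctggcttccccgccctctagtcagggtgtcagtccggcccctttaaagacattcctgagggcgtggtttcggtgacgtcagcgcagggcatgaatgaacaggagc
Sema7a: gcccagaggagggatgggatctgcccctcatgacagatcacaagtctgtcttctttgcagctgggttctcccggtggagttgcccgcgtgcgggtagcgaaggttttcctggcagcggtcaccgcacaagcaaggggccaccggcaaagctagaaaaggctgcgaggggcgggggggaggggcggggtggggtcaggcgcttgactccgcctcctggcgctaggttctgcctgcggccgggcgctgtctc
Windows of 250 bases before to 50 after a start were found for 59 of the 69 members. None of the 75 member windows held the half-site repeated with a spacer of 2 or 5 bases (DR2 or DR5) on either strand, exactly or in the looser DR2 and DR5 consensus, and of all 32851 windows 0.00913% held the exact DR2, 0.00913% the exact DR5, 0.268% the DR2 consensus and 0.0974% the DR5 consensus. A single AGGTCA, which every exact repeat also contains, was in 11 of the 75 member windows (14.7%) and in 16.3% of all windows. The match of letters in Epha2 is a description and not a binding site.

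Sema7a had the largest rise of the semaphorins that passed the test. This lipid-anchored semaphorin (chr9:57940135-57962865), which binds integrins and plexin C1, had an RPKM of 4.76 and 4.68 in DMSO, 7.64 and 7.02 at 25 nM and 8.14 and 8.74 at 1 µM. The DMSO samples were lowest and the 1 µM RA samples highest, with no overlap between the 3 groups, and the fold was 1.55 with 25 nM RA (log2 fold change 0.63 ± 0.069, adjusted p = 9.0e-18) and 1.78 at 1 µM RA (log2 fold change 0.83 ± 0.068, adjusted p = 1.3e-32). Both calls held under each left-out sample and under both other tests. Plxnc1, its plexin, was at 0.560 and 0.503 in DMSO, 0.483 and 0.517 at 25 nM and 0.507 and 0.523 at 1 µM and was not called (log2 fold change -0.093 ± 0.13 with adjusted p = 0.86 at 25 nM and -0.058 ± 0.12 with adjusted p = 0.82 at 1 µM).

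Of the 20 semaphorins, 4 rose (20%, against 4.5% of all genes) and 1 fell (5%, against 3.55%) at 25 nM RA. At 1 µM RA 2 rose (10%, against 8.54%) and 6 fell (30%, against 11.2%). Sema4g, a transmembrane form of low level (0.415 and 0.390 in DMSO, 0.610 and 0.615 at 25 nM and 0.557 and 0.539 at 1 µM), rose at both doses (log2 fold change 0.60 ± 0.16 with adjusted p = 0.0034 at 25 nM and 0.43 ± 0.16 with adjusted p = 0.046 at 1 µM). Sema6a, a transmembrane ligand of A-type plexins, was at 4.22 and 4.30 in DMSO, 4.93 and 5.38 at 25 nM and 4.53 and 4.54 at 1 µM and rose at 25 nM RA only (log2 fold change 0.27 ± 0.062 with adjusted p = 0.00033 at 25 nM and 0.082 ± 0.062 with adjusted p = 0.43 at 1 µM). Sema4b, another class 4 transmembrane form, was at 5.85 and 5.91 in DMSO, 6.79 and 6.71 at 25 nM and 6.27 and 5.93 at 1 µM and was called at 25 nM RA (log2 fold change 0.20 ± 0.062, adjusted p = 0.029), with its 1 µM RA samples also above DMSO but nearer to it (log2 fold change 0.046 ± 0.062, adjusted p = 0.69). Sema4g at 1 µM RA (adjusted p = 0.11 to 0.24) and Sema4b (0.14 to 0.28) were lost without any 1 of the 4 samples compared, and Sema6a without 25 nM RA replicate 2 (0.14).

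Sema6d, a class 6 semaphorin that binds plexin A1, fell at both doses. Its RPKM was 4.47 and 4.44 in DMSO, 3.40 and 4.03 at 25 nM and 3.64 and 3.52 at 1 µM, with every RA sample below both DMSO samples (log2 fold change -0.26 ± 0.075 with adjusted p = 0.013 at 25 nM and -0.33 ± 0.076 with adjusted p = 0.00023 at 1 µM). At the high dose the other 5 that fell were Sema4d, a ligand of plexin B1 (1.74 and 1.85 in DMSO, 1.83 and 1.95 at 25 nM and 1.53 and 1.41 at 1 µM, log2 fold change -0.29 ± 0.096, adjusted p = 0.019), Sema5b, a transmembrane form with thrombospondin repeats (log2 fold change -0.42 ± 0.14, adjusted p = 0.02), Sema3c, a secreted form (log2 fold change -0.32 ± 0.11, adjusted p = 0.037), Sema6b (log2 fold change -0.29 ± 0.12, adjusted p = 0.085) and Sema5a (log2 fold change -0.19 ± 0.076, adjusted p = 0.068). Sema6b was not called by the quasi-likelihood test (adjusted p = 0.12), and DESeq2 called only Sema6d of the 6. At 25 nM RA Sema6d was lost without DMSO replicate 1 or 2 or 25 nM RA replicate 1 (0.12 to 0.49). At 1 µM RA Sema4d and Sema5b were lost without DMSO replicate 2 or 1 µM RA replicate 2 (0.15 to 0.22), Sema3c without DMSO replicate 1 or either 1 µM RA sample (0.14 to 0.28), Sema5a without either DMSO sample or 1 µM RA replicate 1 (0.19 to 0.41), and Sema6b without any 1 of the 4 samples (0.12 to 0.34). Sema4c, the most abundant semaphorin, was at 9.75 and 10.5 in DMSO, 10.9 and 10.1 at 25 nM and 9.43 and 9.53 at 1 µM and was not called at either dose (log2 fold change 0.041 ± 0.060 with adjusted p = 0.87 at 25 nM and -0.10 ± 0.060 with adjusted p = 0.3 at 1 µM).

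Of 8 tested plexins, 0 were called at 25 nM RA by the likelihood ratio test, the quasi-likelihood test or DESeq2 (1 had an unadjusted p under 0.05). At 1 µM RA 5 fell (62.5%, against 11.2% of all genes) and 1 rose (12.5%, against 8.54%) by the likelihood ratio test. Plxna1 was at 12.5 and 12.97 in DMSO, 12.8 and 12.3 at 25 nM and 10.7 and 11.3 at 1 µM. Its 25 nM RA samples overlapped DMSO and its 1 µM RA samples were below both groups (log2 fold change -0.025 ± 0.051 with adjusted p = 0.91 at 25 nM and -0.21 ± 0.051 with adjusted p = 0.00054 at 1 µM). Plxnb2, a receptor of class 4 semaphorins, was at 10.7 and 10.98 in DMSO, 10.2 and 9.83 at 25 nM and 9.02 and 9.51 at 1 µM and fell at 1 µM RA (log2 fold change -0.23 ± 0.052, adjusted p = 0.00014). Plxna2 (log2 fold change -0.14 ± 0.055, adjusted p = 0.056), Plxnb1 (log2 fold change -0.16 ± 0.054, adjusted p = 0.027) and Plxna3 (log2 fold change -0.22 ± 0.076, adjusted p = 0.028) also fell at that dose. Plxna4, a low-level plexin (0.495 and 0.556 in DMSO, 0.562 and 0.619 at 25 nM and 0.635 and 0.634 at 1 µM), rose (log2 fold change 0.27 ± 0.098, adjusted p = 0.04). The calls of Plxnb1 and Plxna3 were lost without DMSO replicate 2 or 1 µM RA replicate 1 (adjusted p = 0.26 to 0.4), that of Plxna2 without either of these or DMSO replicate 1 (0.24 to 0.46), and that of Plxna4 without DMSO replicate 1 or either 1 µM RA sample (0.11 to 0.41).

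Nrp2, the co-receptor for Sema3f and other class 3 semaphorins (chr1:62703317-62818692), fell at both doses. Its RPKM was 4.41 and 4.65 in DMSO, 3.80 and 3.98 at 25 nM and 3.59 and 3.87 at 1 µM. The RA samples were all below the DMSO samples and the doses overlapped each other (log2 fold change -0.22 ± 0.065 with adjusted p = 0.016 at 25 nM and -0.28 ± 0.065 with adjusted p = 0.0002 at 1 µM). The call at 25 nM RA was lost without DMSO replicate 2 (adjusted p = 0.37) or 25 nM RA replicate 1 (0.25). Nrp1, the co-receptor for Sema3a, was at 1.16 and 1.25 in DMSO, 1.18 and 1.11 at 25 nM and 1.08 and 1.17 at 1 µM and was not called (log2 fold change -0.079 ± 0.096 with adjusted p = 0.84 at 25 nM and -0.11 ± 0.096 with adjusted p = 0.53 at 1 µM).

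All 3 Slits fell at 1 µM RA, where 11.2% of all genes fell. Slit3 (chr11:35121456-35708507), the highest of them, was at 6.19 and 5.77 in DMSO, 5.60 and 5.15 at 25 nM and 4.64 and 4.58 at 1 µM. The 3 groups did not overlap and stood in the order of dose, and the fall was called at 1 µM RA (log2 fold change -0.16 ± 0.063 with adjusted p = 0.11 at 25 nM and -0.38 ± 0.064 with adjusted p = 5.8e-08 at 1 µM). Slit2 was at 2.42 and 2.57 in DMSO, 2.17 and 2.24 at 25 nM and 2.03 and 2.03 at 1 µM, also without overlap between groups (log2 fold change -0.18 ± 0.067 with adjusted p = 0.086 at 25 nM and -0.30 ± 0.068 with adjusted p = 0.00012 at 1 µM). Slit1, at 0.482 and 0.501 in DMSO, 0.377 and 0.375 at 25 nM and 0.339 and 0.365 at 1 µM, was called at the high dose (log2 fold change -0.49 ± 0.16, adjusted p = 0.016). The Slit2 call at 25 nM RA was lost under the quasi-likelihood test (adjusted p = 0.11) and without DMSO replicate 2 or either 25 nM RA sample (0.22 to 0.6), and the Slit1 call without DMSO replicate 2 (0.12) or 1 µM RA replicate 1 (0.15).

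Of the 4 Robo receptors, Robo1 and Robo3 fell at 1 µM RA (50%, against 11.2% of all genes). Robo1 was at 7.29 and 7.14 in DMSO, 6.59 and 6.77 at 25 nM and 6.20 and 6.11 at 1 µM. Its 3 groups did not overlap, and the fall was called at 1 µM RA (log2 fold change -0.11 ± 0.053 with adjusted p = 0.25 at 25 nM and -0.24 ± 0.053 with adjusted p = 0.00016 at 1 µM). Robo3, a divergent family member that lets commissural axons cross the midline, was at 0.415 and 0.425 in DMSO, 0.358 and 0.306 at 25 nM and 0.249 and 0.270 at 1 µM and fell at the high dose (log2 fold change -0.70 ± 0.19, adjusted p = 0.0017). Both calls held under every left-out sample, and DESeq2 kept that of Robo1 but not that of Robo3 (adjusted p = 0.12). Robo2 and Robo4, an endothelial member, were under an RPKM of 1 and were not called.

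Among netrins and their receptors, the calls of the likelihood ratio test fell on genes with an RPKM under 1. Ntn1 was at 23.5 and 23.3 in DMSO, 22.7 and 21.7 at 25 nM and 21.3 and 22.2 at 1 µM (log2 fold change -0.081 ± 0.049 with adjusted p = 0.47 at 25 nM and -0.11 ± 0.049 with adjusted p = 0.11 at 1 µM), and its repulsive receptor Unc5b was at 14.95 and 14.5 in DMSO, 15.5 and 14.4 at 25 nM and 14.5 and 14.3 at 1 µM (log2 fold change 0.012 ± 0.052 with adjusted p = 0.96 at 25 nM and -0.038 ± 0.052 with adjusted p = 0.7 at 1 µM), both without a call, although the quasi-likelihood test called Ntn1 down at 1 µM RA (adjusted p = 0.082). Ntn4, a netrin of basement membranes related to laminins, was at 0.250 and 0.226 in DMSO, 0.388 and 0.429 at 25 nM and 0.449 and 0.368 at 1 µM. The RA samples were above both DMSO samples, at 31 and 23 estimated counts in DMSO and 36 to 50 with RA, and the rise was called at both doses (log2 fold change 0.78 ± 0.26 with adjusted p = 0.042 at 25 nM and 0.76 ± 0.26 with adjusted p = 0.024 at 1 µM). Unc5a, at 0.269 and 0.289 in DMSO, 0.345 and 0.297 at 25 nM and 0.413 and 0.516 at 1 µM, rose at 1 µM RA (log2 fold change 0.74 ± 0.20, adjusted p = 0.0025), and Ntn3, at 0.773 and 0.820 in DMSO, 0.732 and 0.633 at 25 nM and 0.593 and 0.664 at 1 µM, fell (log2 fold change -0.35 ± 0.13, adjusted p = 0.054). DESeq2 called none of Ntn4, Unc5a and Ntn3. Ntn4 was lost at 25 nM RA without any 1 of the 4 samples (adjusted p = 0.12 to 0.41) and at 1 µM RA without DMSO replicate 2 (0.15) or 1 µM RA replicate 1 (0.28), Unc5a without 1 µM RA replicate 2 (0.12), and Ntn3 without either DMSO sample or 1 µM RA replicate 1 (0.11 to 0.33).

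The doses were also compared directly, 1 µM RA against 25 nM RA. By the likelihood ratio test 1 of the 66 members was higher at 1 µM RA (1.52%, against 0.792% of all genes) and 5 were lower (7.58%, against 2.62%). Sema7a was the higher one (log2 fold change 0.20 ± 0.065, adjusted p = 0.064). Sema4d (log2 fold change -0.37 ± 0.096, adjusted p = 0.0088), Plxna1 (log2 fold change -0.19 ± 0.052, adjusted p = 0.018), Slit3 (log2 fold change -0.22 ± 0.065, adjusted p = 0.033), Sema6a (log2 fold change -0.19 ± 0.062, adjusted p = 0.07) and Sema5b (log2 fold change -0.42 ± 0.14, adjusted p = 0.09) were the lower ones. The quasi-likelihood test called 0 higher (against 0.508% of all genes) and 3 lower (Plxna1, Sema4d and Slit3, against 1.71%). DESeq2 called 0 higher (against 0.258%) and 1 lower (Plxna1, against 0.786%). At an unadjusted p under 0.05 by the likelihood ratio test, 2 of the 66 members were higher and 15 lower. Of all 15143 genes 712 were higher and 1222 lower at that threshold. Each of the 6 calls was lost without at least 2 of the 6 samples. Plxna1 was lost without either 25 nM RA sample or 1 µM RA replicate 1 (adjusted p = 0.11 to 0.31), Sema4d without 25 nM RA replicate 2 or 1 µM RA replicate 2 (0.15 and 0.28), and Slit3 without 25 nM RA replicate 1 or 1 µM RA replicate 2 (0.15 and 0.52). Sema7a was lost without either 25 nM RA sample or 1 µM RA replicate 2 (0.11 to 0.5), Sema5b without either DMSO sample, 25 nM RA replicate 1 or 1 µM RA replicate 2 (0.12 to 0.76), and Sema6a without any 1 sample other than 25 nM RA replicate 1 (0.11 to 0.62). For Epha2, Epha7 and Efnb1, called at both doses, the difference between doses did not pass the test (log2 fold change -0.011 ± 0.050, adjusted p = 0.96 for Epha2, log2 fold change -0.078 ± 0.060, adjusted p = 0.62 for Epha7 and log2 fold change -0.069 ± 0.057, adjusted p = 0.66 for Efnb1).

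The Epha7 gene has 3 RefSeq transcripts in the files, and the most abundant of them was not called. The 2 long forms encode 998 and 994 codons and differ in length by 12 bases, the first bases of exon 10 at chr4:28947528-28947539 (GRCm38, plus strand), which add 4 codons within the coding sequence and are absent from the shorter form. Efna5 has 2 forms that differ by a whole coding exon, exon 4 of 81 bases or 27 codons at chr17:62613316-62613396 (minus strand). The stretches are shown with 24 bases on either side, read from the GENCODE transcripts of build GRCm38, with capitals for the bases that only 1 form holds.
Epha7 with 998 codons: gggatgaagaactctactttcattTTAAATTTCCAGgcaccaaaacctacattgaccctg
Epha7 with 994 codons: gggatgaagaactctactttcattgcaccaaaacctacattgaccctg
Efna5 with 228 codons: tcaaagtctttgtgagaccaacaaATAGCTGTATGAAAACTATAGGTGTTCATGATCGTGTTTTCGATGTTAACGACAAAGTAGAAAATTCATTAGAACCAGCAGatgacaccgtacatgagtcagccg
Efna5 with 201 codons: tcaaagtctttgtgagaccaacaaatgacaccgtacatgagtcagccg

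The 994-codon Epha7 form had an RPKM of 1.87 and 1.69 in DMSO, 0.639 and 0.871 at 25 nM and 0.562 and 0.683 at 1 µM. Both doses lay under the DMSO samples without overlap (log2 fold change -1.23 ± 0.21 with adjusted p = 1.7e-06 at 25 nM and -1.52 ± 0.22 with adjusted p = 4.4e-10 at 1 µM in the fit of all 22074 transcripts tested). The 998-codon form was at 3.34 and 2.85 in DMSO, 3.32 and 2.97 at 25 nM and 3.08 and 3.05 at 1 µM and the 3 groups overlapped (log2 fold change 0.014 ± 0.11 with adjusted p = 1 at 25 nM and -0.023 ± 0.12 with adjusted p = 0.97 at 1 µM). The remaining form, of 610 codons, which lacks the later exons, was at 1.09 and 1.80 in DMSO, 0.711 and 1.09 at 25 nM and 1.07 and 0.701 at 1 µM, and was not called (log2 fold change -0.68 ± 0.39 with adjusted p = 0.67 at 25 nM and -0.71 ± 0.39 with adjusted p = 0.39 at 1 µM). Under the quasi-likelihood test the 994-codon form kept its call (adjusted p = 0.064 and 0.021).

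For Efna5, the 201-codon form without exon 4 was at 0.360 and 0.275 in DMSO, 0.0582 and 0.101 at 25 nM and 0.0554 and 0.0832 at 1 µM, lower in all RA samples (log2 fold change -1.97 ± 0.47 with adjusted p = 0.0021 at 25 nM and -2.21 ± 0.48 with adjusted p = 0.00021 at 1 µM). The 228-codon form was at 0.417 and 0.534 in DMSO, 0.595 and 0.506 at 25 nM and 0.537 and 0.515 at 1 µM and was not called (log2 fold change 0.20 ± 0.27 with adjusted p = 1 at 25 nM and 0.14 ± 0.27 with adjusted p = 0.9 at 1 µM). The quasi-likelihood test did not call the 201-codon form at 25 nM RA (adjusted p = 0.15) and called it at 1 µM RA (0.065). Reads that match several forms were divided among them by the authors' estimation, and only reads over these stretches or their junctions distinguish the paired forms, so the share given to each form is uncertain. The difference between forms was not tested. Over all members, 10 of 110 tested transcripts were called at 25 nM RA (9.09%, against 3.69% of all transcripts) and 11 of 110 at 1 µM RA (10%, against 8.3%).

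**Figure D3:**
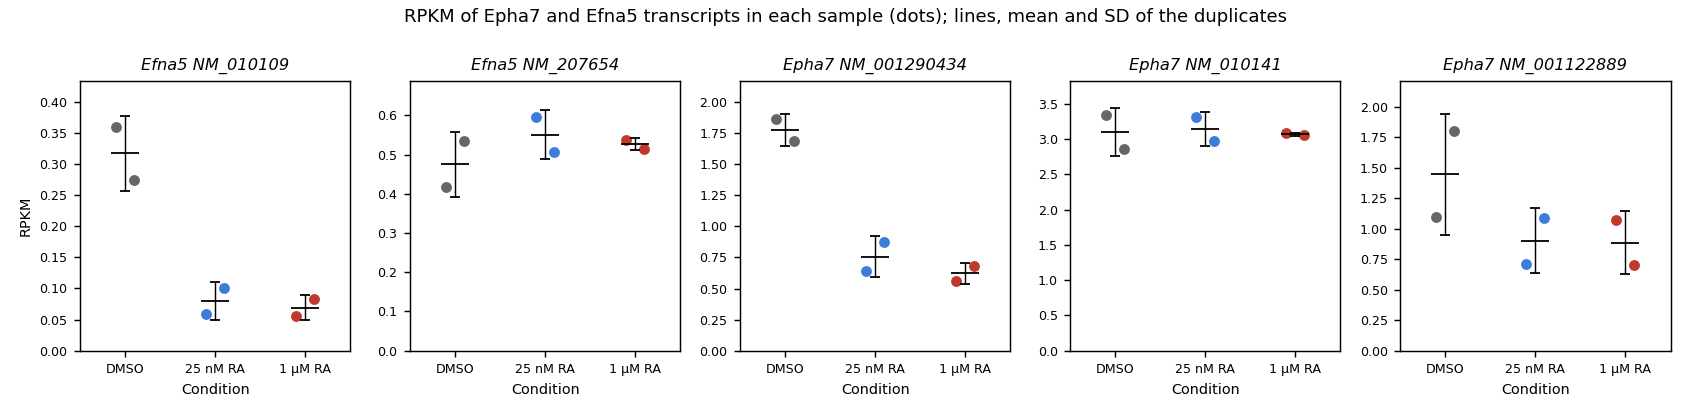
RPKM (vertical axes from 0) of the RefSeq transcripts of Efna5 and Epha7 in each of the 6 samples (dots), with the mean and SD of the duplicates (lines). The 994-codon Epha7 form (NM_001290434) and the 201-codon Efna5 form (NM_010109) are lower in all RA samples, and the long forms NM_010141 and NM_207654 overlap between groups.

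Genes around these systems were listed separately. Of 15 other guidance and adhesion genes, 2 rose (13.3%) and 3 fell (20%) at each dose, against 4.5% and 3.55% of all genes for the low dose, with 8.54% and 11.2% for the high one. Flrt3, an adhesion protein that binds Unc5 receptors, was at 5.46 and 5.17 in DMSO, 9.18 and 9.15 at 25 nM and 10.5 and 10.9 at 1 µM and rose (log2 fold change 0.79 ± 0.059 with adjusted p = 2.4e-38 at 25 nM and 1.01 ± 0.058 with adjusted p = 9.6e-66 at 1 µM), with no overlap between the 3 groups. Rgma, a ligand of the netrin receptor family member neogenin, was at 1.86 and 1.77 in DMSO, 3.27 and 2.77 at 25 nM and 2.70 and 2.78 at 1 µM and rose (log2 fold change 0.72 ± 0.095 with adjusted p = 3.4e-12 at 25 nM and 0.58 ± 0.096 with adjusted p = 4.3e-08 at 1 µM). Its paralog Rgmb, a co-receptor of bone morphogenetic proteins, was at 4.56 and 4.62 in DMSO, 3.42 and 3.09 at 25 nM and 2.51 and 2.51 at 1 µM and fell (log2 fold change -0.51 ± 0.083 with adjusted p = 5.6e-08 at 25 nM and -0.88 ± 0.088 with adjusted p = 3.2e-22 at 1 µM). Cntn2, a lipid-anchored adhesion protein of axons, was at 1.96 and 1.88 in DMSO, 1.66 and 1.61 at 25 nM and 1.37 and 1.43 at 1 µM and fell (log2 fold change -0.24 ± 0.068 with adjusted p = 0.011 at 25 nM and -0.46 ± 0.070 with adjusted p = 1.3e-09 at 1 µM). Of the paralogs Rgma and Rgmb, then, 1 was higher and the other lower in every RA sample than in either DMSO sample.

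Of 51 cytoplasmic effectors that act below these receptors, 2 rose and 5 fell at 25 nM RA (3.92% and 9.8%), and 6 rose and 16 fell at 1 µM RA (11.8% and 31.4%), beside the same 4.5%, 3.55%, 8.54% and 11.2% of all genes, with a median log2 fold change of -0.021 and -0.096. Abl1, a tyrosine kinase that acts below Robo receptors, was at 12.7 and 12.6 in DMSO, 20.8 and 19.2 at 25 nM and 19.2 and 20.6 at 1 µM and rose (log2 fold change 0.59 ± 0.052 with adjusted p = 9.2e-28 at 25 nM and 0.58 ± 0.052 with adjusted p = 6.7e-27 at 1 µM). Of the semaphorin mediators of the collapsin response family, Dpysl5 and Dpysl2 fell at both doses. Crmp1 fell at 1 µM RA only (log2 fold change -0.20 ± 0.053, adjusted p = 0.0019), and Dpysl3 and Dpysl4 were called at neither dose. Dpysl5 was at 9.57 and 9.23 in DMSO, 7.78 and 7.47 at 25 nM and 6.74 and 7.01 at 1 µM (log2 fold change -0.31 ± 0.054 with adjusted p = 7.1e-07 at 25 nM and -0.46 ± 0.055 with adjusted p = 3.9e-15 at 1 µM). Dpysl2 was at 23.2 and 21.2 in DMSO, 20.5 and 19.9 at 25 nM and 17.7 and 17.6 at 1 µM (log2 fold change -0.14 ± 0.053 with adjusted p = 0.088 at 25 nM and -0.34 ± 0.054 with adjusted p = 9.9e-09 at 1 µM). DESeq2 did not call Dpysl2 at 25 nM RA (adjusted p = 0.22).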

How the data were processed

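Neuromesodermal progenitors derived from mouse ESCs were compared after 2 h of DMSO, 25 nM RA or 1 µM RA, with 2 samples per group taken from the sample labels. The authors aligned reads of 50 bases with TopHat to mm10 (FastQC 0.11, TopHat2 2.0.13, Bowtie2 2.2.5.0 and Partek 6.6 in the submitters' processing notes) and divided reads among RefSeq transcripts by expectation-maximization. The estimated counts were deposited without normalization, 49.4 to 50.1% of them not whole, and the RPKM values were made by the authors from transcript length and depth. Both were summed over the transcripts of a gene here, and RPKM was used only to describe levels.

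Gene sums were rounded and fitted in edgeR 4.0.16 (R 4.3.3) with TMM factors (0.989 to 1.008), the filterByExpr filter and the likelihood ratio test named in the study's methods, all 6 samples in 1 fit, with p-values adjusted by the Benjamini-Hochberg method over 15143 genes. The alternatives were the quasi-likelihood test, DESeq2 1.42.0 and its size factors, other filters, a block for replicate numbers, a fit of the 4 samples of a comparison alone, a threshold of 0.05, the study's list thresholds, transcripts in place of genes and each sample left out. The gene fits were tested on simulated counts for 25 nM RA against DMSO. Named were all members called in any comparison, Epha7, the highest member of each family in DMSO, and up to 3 genes with the smallest adjusted p in each related list. Some relatives and partners of these genes were named beside them. The result of 1 gene that the rule names is not reported here. The members and lists were chosen with earlier results of these data known. Gene ends are given as the last base, 1 less than in the files, on GRCm38 (mm10). Promoter windows are from RefSeq and transcript sequences from GENCODE. Depth was 31753556 to 42029348 estimated counts per sample. The SE of the log2 fold change came from the counts of a gene and from the fitted spread between samples. At 1 µM RA it was 0.26 for Ntn4, at 23 to 50 counts, and 0.048 for the abundant Epha1. It was 0.047 for T, which had more counts than Epha1, so the fitted spread limits the precision of abundant genes. Python 3.11.15, pandas 2.3.3 and matplotlib 3.10.9 made tables and figures.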

Additional observations from a re-analysis of the deposited data

Results flagged for a closer look

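For 6 members the response at 1 µM RA differed from that at 25 nM RA in the contrast of the doses itself, by edgeR's likelihood ratio test with an adjusted p under 0.1. As log2 fold change at 1 µM RA relative to 25 nM RA, Sema7a was higher by 0.20. Lower ones were Sema5b at -0.42, Sema4d at -0.37, Slit3 at -0.22, Sema6a at -0.19 and Plxna1 at -0.19. Sema7a and Slit3 were displaced from DMSO in 1 direction in all 4 RA samples, Sema6a was above both DMSO samples at both doses and highest at 25 nM RA, and Plxna1, Sema4d and Sema5b overlapped DMSO at 25 nM RA and lay below it at 1 µM RA. The quasi-likelihood test called Plxna1, Sema4d and Slit3 of these, and DESeq2 called Plxna1.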

How the results depend on the processing

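Of the 55 results on single members, 55 kept direction and call with DESeq2's size factors and with a filter of CPM above 1 in 2 samples, 53 with no filter, 51 with only the 4 samples compared, 51 with the replicate number as a block, 47 with the quasi-likelihood test and 23 with DESeq2. Replicate numbers did not pair the samples, as the deviations of same-numbered samples correlated at -0.04, 0.05 and -0.06. The block left 7 members rising and 7 falling at 25 nM RA, 7 and 26 at 1 µM RA, and 0 higher and 4 lower between doses. Members called at 25 nM RA, 7 up and 9 down, became 7 and 5 with the quasi-likelihood test and at an adjusted p under 0.05, and 4 and 2 with DESeq2. At 1 µM RA, 7 up and 26 down became 3 and 13 with DESeq2. Between doses, 1 higher and 5 lower became 0 and 3 with the quasi-likelihood test, with only the 4 samples and at an adjusted p under 0.05, and 0 and 1 with DESeq2. The study's list thresholds left 0 in every comparison, also at an unadjusted p under 0.05 and by either other tool. Leaving out a sample gave 4 to 7 up and 2 to 9 down at 25 nM RA, 4 to 7 up and 16 to 25 down at 1 µM RA, and 0 to 1 higher and 1 to 3 lower between doses, with 19 of the 55 calls kept throughout and 0 reversed. The lowest counts down came without DMSO replicate 2 (2 at 25 nM RA, 16 at 1 µM RA) and without 1 µM RA replicate 1 (16). In the fit of transcripts, members with a called transcript were 5 down at 25 nM RA, 4 up and 7 down at 1 µM RA and 1 lower between doses. The most abundant transcript in place of the gene reversed Epha7 at 25 nM RA (0.014), Efna5 (0.20 and 0.14) and Sema6d at 1 µM RA (0.088), with Epha7 at -0.023 at 1 µM RA, none of these called. With 2 dishes per group, no alternative addresses differences between cultures made on other days.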

Other observations

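The members are longer than most genes tested. Their median transcript length was 4878 bases and their median genomic span 51454 bases, against 2867 and 21240 bases over all 15143 genes tested, while their median count per sample was 350.3 against 651.7. In the tenth of genes with the longest transcripts the median log2 fold change at 1 µM RA was -0.08, and the 24 members in it had a median of -0.21. In the tenth with the longest genomic span it was -0.06, with -0.23 for the 28 members in it. The part of length in the members' fall was not tested.

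The members below the filter on low counts were at most at an RPKM of 0.0276 (Epha6), 0.0555 (Ntn5) and 0.0137 (Plxnb3) in any sample. By family, the summed RPKM of the plexins was 48.0 in DMSO, 46.1 at 25 nM RA and 42.5 at 1 µM RA, that of the Slits 8.97, 7.95 and 6.99, and that of the Robo receptors 7.88, 7.27 and 6.65, as means of the duplicates. The Eph receptors summed to 142 in DMSO, 152 at 25 nM RA and 146 at 1 µM RA, and the semaphorins to 45.0, 48.8 and 46.5. Epha2 alone was at a mean of 25.2, 39.97 and 39.7 in the same order, and Sema7a at 4.72, 7.33 and 8.44. At 1 µM RA 11 of 13 tested Eph receptors and 12 of 20 semaphorins had a log2 fold change below 0. At that dose, then, neither sum shows a rise across its family.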
